A study of Mus musculus with 85 samples.

Results

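The microRNA miR-22 was examined in 85 hearts, each from a female of the HMDP, a diversity panel of inbred mouse strains used to map genetic differences in traits. Its members were the 2 rows of the count table that hold its mature arms, mmu-miR-22-3p and mmu-miR-22-5p, out of 1977 mature miRNAs listed. Of those, 548 had at least 1 count and 51 passed the filter on low counts. miR-22-3p passed that filter and miR-22-5p did not. All hearts belonged to 1 condition: the mice were 16 weeks old, and 8 weeks on chow had been followed by 8 weeks on HF/HS, a diet rich in fat and sucrose. Each library came from 1 heart, and the strain of each heart was not used here, so differences between hearts combine strain, animal and library preparation. No heart of a mouse kept on chow was analysed here, so no effect of the diet was measured.

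A mature miRNA is a short RNA of about the same length for every family, cut from one arm of a hairpin precursor, and it guides repression of messenger RNAs that pair with its seed, the bases 2 to 8. A precursor has a 5p arm and a 3p arm, and usually one of them is retained while the other is degraded. miR-22 is a conserved miRNA that is known in striated muscle, and in the mouse heart it has been studied for its part in hypertrophic growth and in the response to stress, with Sirt1 and Hdac4 among its targets.

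Mature miR-22-3p and miR-22-5p are shown with the seed in capitals because the seed sets which messages an arm can pair with, and the 95-base precursor is shown with both mature arms in capitals (RefSeq, GRCm38.p6, 5′ to 3′).
miR-22-3p: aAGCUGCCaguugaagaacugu
miR-22-5p: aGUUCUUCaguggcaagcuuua
Mir22 precursor: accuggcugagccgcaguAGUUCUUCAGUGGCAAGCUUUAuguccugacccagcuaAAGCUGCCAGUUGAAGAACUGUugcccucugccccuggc
The precursor lies at chr11:75463716-75463810 on the plus strand, the 5p arm at chr11:75463734-75463755 and the 3p arm at chr11:75463772-75463793. In the predicted minimum-energy fold (-41.9 kcal/mol), 19 of the 22 bases of the 3p arm paired with the 5p arm. No other of the 1679 mature miRNAs with a sequence shared bases 2 to 8 with either arm, so both seeds were unique in that table. miR-6935-3p and miR-7092-3p shared bases 2 to 7 with miR-22-5p, and both were at 0 counts in all 85 libraries.

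In the GENCODE annotation of GRCm38, Mir22 (ENSMUSG00000065529.1) sits in exon 2 of its noncoding host gene Mir22hg (ENSMUSG00000085148.1). The same stretch is exon 2 of a noncoding transcript of Tlcd2 (ENSMUSG00000038217.13). Both genes are on the strand of Mir22, and 0 genes on the opposite strand overlap it. The nearest of the chromosome 11 miRNA genes examined were Mir132 and Mir212, about 290 kb away.

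Total counts per library ranged from 1457 to 30202 (median 12248), so a miRNA at 0 counts in the median library could still have been present at a low share. The labels give library numbers but no batch. The bounds of the 4 runs of library numbers used here come from an earlier analysis of these data. The 11 libraries outside these runs were among the shallow ones (median 8184 counts). Among 3570 pairs of libraries, no chi-square per degree of freedom was under 1.496, so no library appeared to be a second copy of another. The libraries fell into separate sets along the first principal component of the other tested miRNAs, which held 75.5% of the variance and followed runs of library numbers (S1-10, n = 10; S22-48, n = 27; S49-59, n = 11; S60-85, n = 26). Runs S1-10 and S49-59 lay on one side of it and S22-48 and S60-85 on the other. Because the bounds were set with these data known, this match gives no independent support for the runs. Cardiomyocyte miRNAs summed to between 18.5% and 29.2% of counts in these runs, whereas miR-206-3p of skeletal muscle had 1 count in all. Of the 2 neuron miRNAs listed, miR-124-3p had 0 counts and miR-9-5p had 307, with a count in 81 of 85 libraries.

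miR-22-3p was a moderately abundant miRNA of these hearts. It had 2221 counts over the 85 libraries, 0.194% of all counts (95% Wilson interval 0.187% to 0.203%, counting error only), and ranked 45th of the 548 miRNAs with a count. Among the 44 rows above it, 2 were checked for strand: miR-1b-5p, whose gene Mir1b overlaps Mir1a-2 on the opposite strand, and miR-126b-3p, whose gene Mir126b so overlaps Mir126a. Without these 2 rows its rank was 43. The rows of the opposite genes were kept in that rank, and the remaining rows were not checked for such overlap. The strand setting of the counting is not given in the sources used here. Every library held more than 3 counts of miR-22-3p, from 5 in library 14, the shallowest, to 87 in library 52, with a median of 22. As CPM (counts scaled to a common library size), its level ran from 642 in library 3 through a median of 1802 to 5156 in library 46. On the log2 scale this was 9.63 to 12.37 with a median of 10.93 and an SD of 0.50 (n = 85), and its rank within a library varied from 32 to 78 with a median of 44. Library 46 had the lowest scaling factor of the series (TMM, 0.696), which raises its CPM. As a share of all counts library 52 was the highest, at 0.452%, with library 46 at 0.359%.

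The miRNAs on either side of miR-22-3p in total count were close to it. Above it stood miR-152-3p with 2876 counts, miR-27a-3p with 2365 and miR-378b with 2351. Below it were let-7d-5p with 2137 counts, miR-23b-3p with 2022 and the muscle miRNA miR-133b-3p with 1675. Within single hearts the order often changed. miR-22-3p was higher than miR-152-3p in 17 of 85 libraries, than miR-378b in 34, than let-7d-5p in 49 and than miR-133b-3p in 62. The log2 CPM medians of miR-378b (11.10, SD 0.43) and let-7d-5p (10.74, SD 0.74) both lay within 1 SD of that of miR-22-3p, so the place of miR-22-3p among these neighbours was not separated by the spread between hearts.

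**Figure D1:**
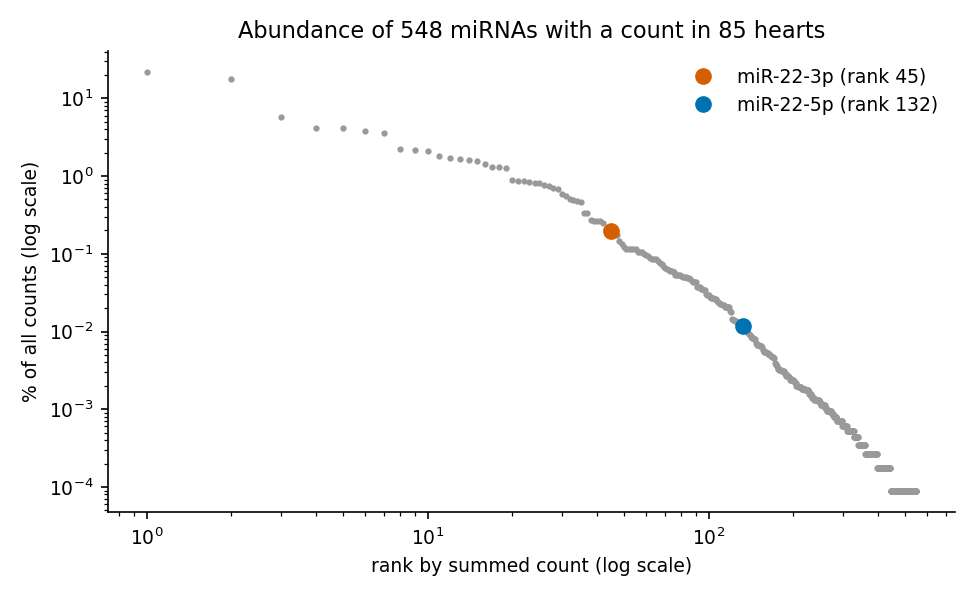
Share of all counts (%, log scale) against rank by summed count (log scale) for the 548 miRNAs with a count in 85 hearts. miR-22-3p (orange, rank 45) and miR-22-5p (blue, rank 132) are marked, and each grey point is another miRNA.

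miR-22-5p was a minor product. It had 135 counts in all, ranked 132nd, was at 0 in 27 libraries and passed 3 counts in 11. Its highest count was 9, in library 56. miR-22-3p was higher than miR-22-5p in all 85 libraries. The 5p arm made up 5.73% of what the arms summed to (Wilson interval 4.86% to 6.74%), and the median library held 22 counts over both arms, so a 5p arm at 0 counts there allows a 5p share of up to 13.6%.

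Both arms were more evenly retained for miR-22 than for most other precursors. Among 61 precursors with at least 500 counts over both arms, the major arm held a median of 99.4% of counts, and 9 precursors had a lower major-arm share than the 94.3% of miR-22. The 3 precursors nearest to miR-22 in count were more one-sided. The 5p arm took 0.169% of miR-27a (Wilson interval 0.0657% to 0.433%) and 0.148% of miR-23b (0.0504% to 0.435%), while let-7d, whose 5p arm is the major one, had 96.5% 5p. These counts are pooled over all libraries. Within runs, the minor share of let-7d was 5.25% (Wilson interval 3.42% to 7.97%) in S1-10, 3.09% (1.88% to 5.03%) in S22-48, 2.94% (1.87% to 4.59%) in S49-59 and 3.77% (2.37% to 5.95%) in S60-85, so miR-22, whose shares by run follow, was clear of let-7d in S49-59 and overlapped it in the other 3 runs. The 5p counts of miR-27a and miR-23b were between 0 and 3 in each run.

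The 5p share of miR-22 was not the same throughout the series. It was 9.29% in S1-10 (13 of 140 counts, Wilson interval 5.51% to 15.2%), 4.09% in S22-48 (31 of 758, 2.90% to 5.75%), 9.24% in S49-59 (46 of 498, 7.0% to 12.1%) and 3.82% in S60-85 (31 of 811, 2.71% to 5.37%). The 11 libraries outside these runs had 9.40% (14 of 149, 5.68% to 15.2%). No library of S49-59 was at 0 for miR-22-5p, against 12 of 26 in S60-85 and 11 of 27 in S22-48.

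Per library, the log2 ratio of 3p to 5p (0.5 added to each count) averaged 3.04 ± 1.08 (SD, n = 10) in S1-10, 4.24 ± 1.18 (n = 27) in S22-48, 3.16 ± 0.79 (n = 11) in S49-59 and 4.58 ± 1.24 (n = 26) in S60-85. These means differed between runs (permutation test over libraries, p = 0.00041, adjusted p = 0.000615 over 9 precursors). S49-59 was lower than S60-85 by 1.42 ± 0.34 (difference in log2 ratio ± SE). With 0.1 in place of 0.5 this difference was -2.49, so its size rests on the value added to zero counts. Between S1-10 and S49-59 the ratio differed by 0.12 ± 0.42 (SE), with a permutation p of 0.776, an interval too wide to show that they were alike. Of 9 precursors tested (8 whose arms each reached 500 counts, and miR-22), 7 differed between runs (77.8%), so miR-22 was one of many. Of these 7, 3 had a lower 3p to 5p ratio in S49-59 than in S60-85 (miR-22, miR-142a at -0.72 ± 0.17 and miR-378a at -0.47 ± 0.21) and 4 a higher one, among them miR-30e (2.31 ± 0.17) and miR-133a (1.30 ± 0.20). Read as the share of the minor arm, which is 3p for miR-30e and miR-30a, it was higher in S49-59 for 5 of the 7, miR-22 included.

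**Figure D2:**
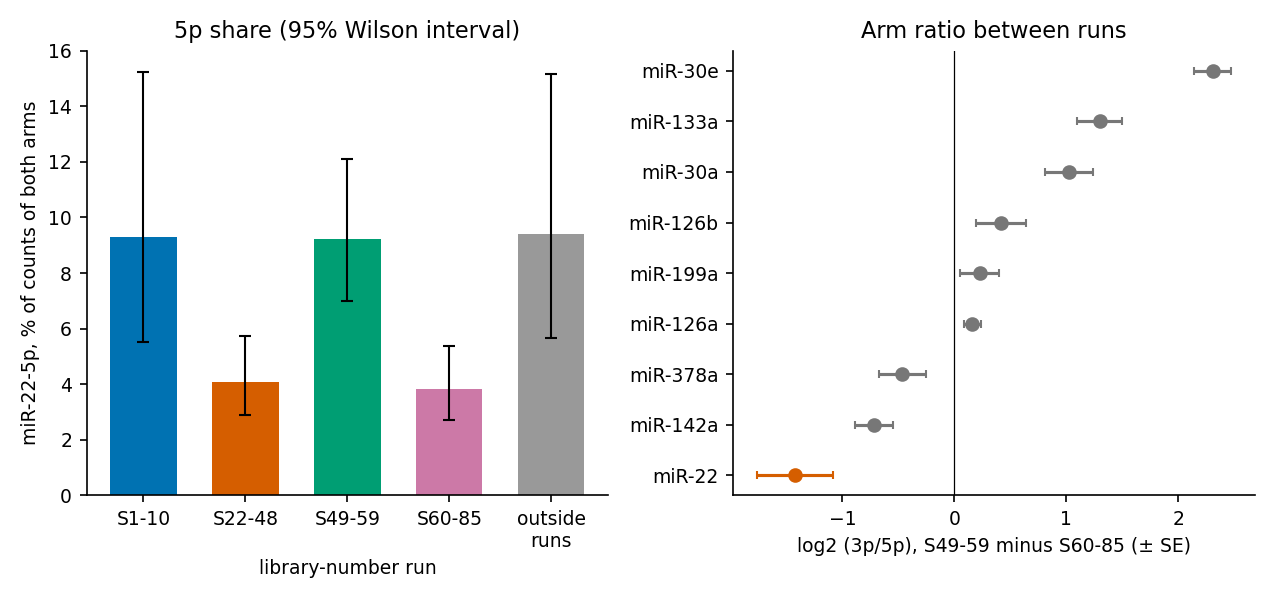
Left, miR-22-5p as % of the counts of both arms, pooled in each run of library numbers, with 95% Wilson intervals; S1-10, S49-59 and the libraries outside the runs are near 9%, and S22-48 and S60-85 near 4%. Right, difference of the mean log2 3p to 5p ratio, S49-59 minus S60-85, with SE for 9 precursors, where miR-22 (orange) is the most negative at -1.42.

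The level of miR-22-3p itself also differed between runs. In S1-10 its log2 CPM ran from 9.63 to 10.83 with a median of 10.43, in S22-48 from 9.92 to 12.37 with a median of 11.01, in S49-59 from 10.92 to 12.03 with a median of 11.07, and in S60-85 from 10.34 to 11.40 with a median of 10.95. Run S1-10 was the lowest and S49-59 the highest, and all 10 libraries of S1-10 lay below all 11 of S49-59. No other of the 51 tested miRNAs had libraries that did not overlap between these 2 runs (1 of 51, 1.96%). This separation of miR-22-3p rested on TMM. As a share of all counts, library 4 of S1-10 (0.209%) was above libraries 51 (0.187%) and 59 (0.206%) of S49-59. The means were 10.30 ± 0.41, 11.08 ± 0.53, 11.23 ± 0.37 and 10.93 ± 0.30 (SD). edgeR's quasi-likelihood test of the 4 runs gave an adjusted p of 1.64e-05 for miR-22-3p, but 50 of the 51 tested miRNAs were called (98.0%), so a difference between runs was common to nearly all of them. The run bounds were set with these data known, so such a test describes the runs and gives no independent support for them. Without S1-10, the call for miR-22-3p was lost (adjusted p = 0.0523), while 45 of 51 miRNAs were still called. That test was added after the values were seen.

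The pairs of runs showed where miR-22-3p stood apart. In the contrast of S1-10 with S49-59, runs that shared a side of the first principal component, 16 of 51 miRNAs were called (31.4%) and 6 of them were higher in S49-59 (11.8%). miR-22-3p was higher in S49-59 by 1.02 ± 0.21 (log2 fold change ± SE, 2.02-fold, adjusted p = 0.000197 by edgeR), the largest rise of the 51 miRNAs in that contrast, whose median was -0.05 and whose next highest value was 0.73 for miR-378b. This contrast was singled out after its values were seen. The rise ranked first under both other scalings as well, at 0.99 with DESeq2 size factors and 1.1 without TMM, and without the filter it was 1.13, 31st of 548 miRNAs. As a pooled share of all counts, miR-22-5p was 2.16-fold and miR-22-3p 2.17-fold higher in S49-59 than in S1-10. The permutation test of the 5p share between these runs gave an adjusted p of 0.110 over 6 pairs, so for the 5p arm the rise did not pass.

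miR-22-3p was also lower in S1-10 than in S22-48 (log2 fold change 0.93 ± 0.19 in favour of S22-48, adjusted p = 6.52e-06, 88.2% of miRNAs called) and than in S60-85 (0.69 ± 0.19, adjusted p = 0.000571, 92.2% called). S49-59 was above S60-85, with S60-85 minus S49-59 at -0.33 ± 0.15 (adjusted p = 0.0322, 90.2% called). Of the neighbours in this order, S49-59 and S22-48 did not differ beyond their spread (0.08 ± 0.15, adjusted p = 0.594, 74.5% called), nor did S22-48 and S60-85 (-0.25 ± 0.12, adjusted p = 0.115, 27.5% called). The order rested on the scaling. Without TMM, S49-59 was above S22-48 by 0.39 ± 0.15 (adjusted p = 0.013), S60-85 minus S49-59 was -0.69 ± 0.15 (adjusted p = 1.28e-05) and S60-85 minus S22-48 was -0.30 (adjusted p = 0.049), so all 6 pairs passed. Leaving out TMM also moved the median of all 51 miRNAs in these 3 contrasts, by 0.29, -0.36 and -0.09. With DESeq2 size factors S60-85 minus S49-59 was -0.26 and did not pass (adjusted p = 0.0985), and without the filter it was -0.15 (adjusted p = 0.559). S1-10 was below each other run under every one of these settings. Median totals were 9635 counts in S1-10, 11173 in S22-48, 15496 in S49-59 and 17665 in S60-85. The part of depth in these differences was not tested. Leukocyte miRNAs summed to a median of 0.561% in S1-10 and 0.640% in S49-59, against 1.90% in S22-48 and 1.84% in S60-85. Fibroblast miRNAs summed to medians of 1.40%, 0.956%, 1.14% and 0.679% in S1-10, S22-48, S49-59 and S60-85. Both sums come mostly from a single row. In the leukocyte list miR-142a-3p had 14800 counts and the next member, miR-223-3p, 1111. In the fibroblast list miR-199a-3p had 9607 and the next member, miR-199a-5p, 996.

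**Figure D3:**
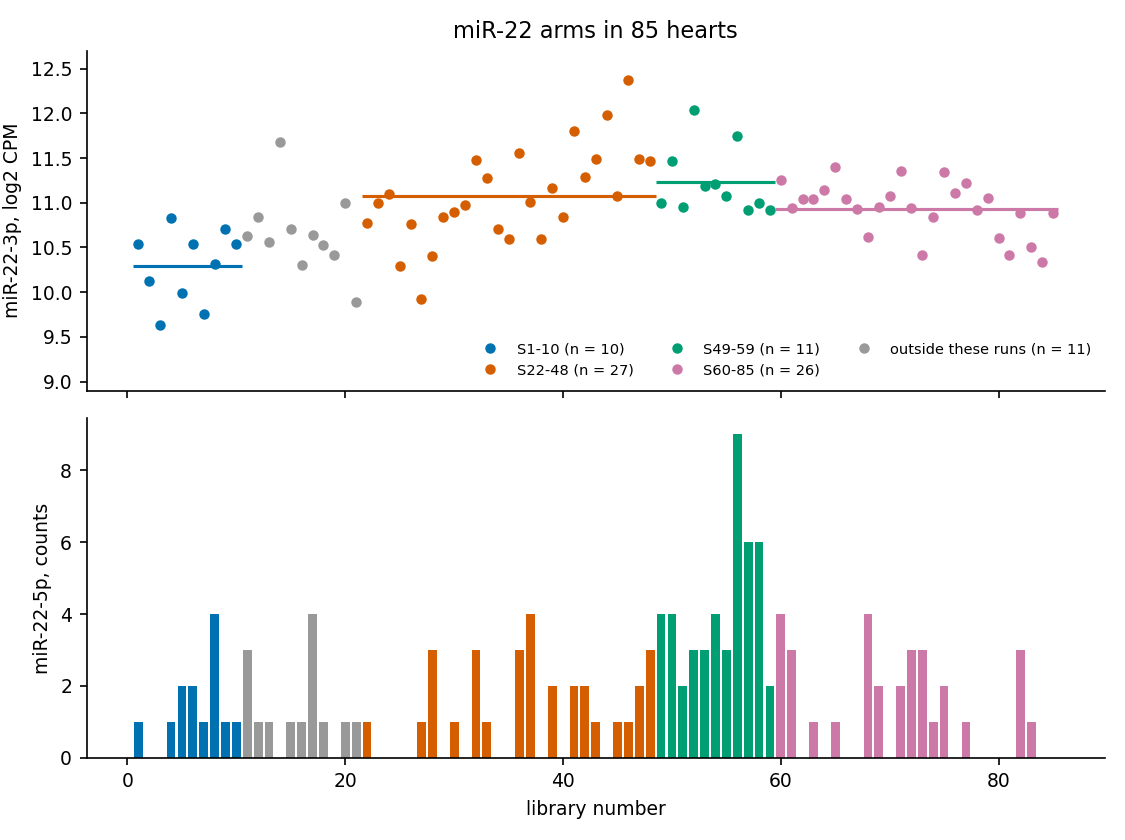
Top, log2 CPM of miR-22-3p in each of 85 libraries by library number, coloured by run with a line at each run's mean; the S1-10 libraries lie between 9.63 and 10.83 and those of S49-59 between 10.92 and 12.03. Bottom, raw counts of miR-22-5p in the same libraries, highest at 9 in library 56.

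Hearts differed in miR-22-3p by more than counting noise. Against a Poisson expectation over 85 libraries its chi-square per degree of freedom was 3.79 (adjusted p = 6.27e-29), and 50 of 51 miRNAs were called (98.0%). With the expectation set within each run it was 2.93 (adjusted p = 6.18e-15), and 48 of 51 were called (94.1%). Such excess was general among the tested miRNAs. The biological coefficient of variation of miR-22-3p, edgeR's estimate of the spread left after counting noise, was 31.3% over all libraries, 28th of 51 from the highest. Within runs it was 23.9%, 8th of 51, where the median miRNA had 17.9% and the range was 9.28% for miR-26b-5p to 49.4% for the erythroid miR-451a. Trends of miR-22-3p with library number inside runs (r = 0.64 in S22-48 and -0.50 in S60-85) were not removed from this spread. An approximation put counting noise at 50.3% of the within-run variance of its log2 CPM. It took the Poisson variance without the constant that is added to counts in log2 CPM, so it can read too high. For miR-27a-3p it gave 107%. miR-22-5p, with a median of 1 count, had a chi-square per degree of freedom of 1.71 over all libraries (p = 6.02e-05) and 1.51 within runs (p = 0.00398).

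**Figure D4:**
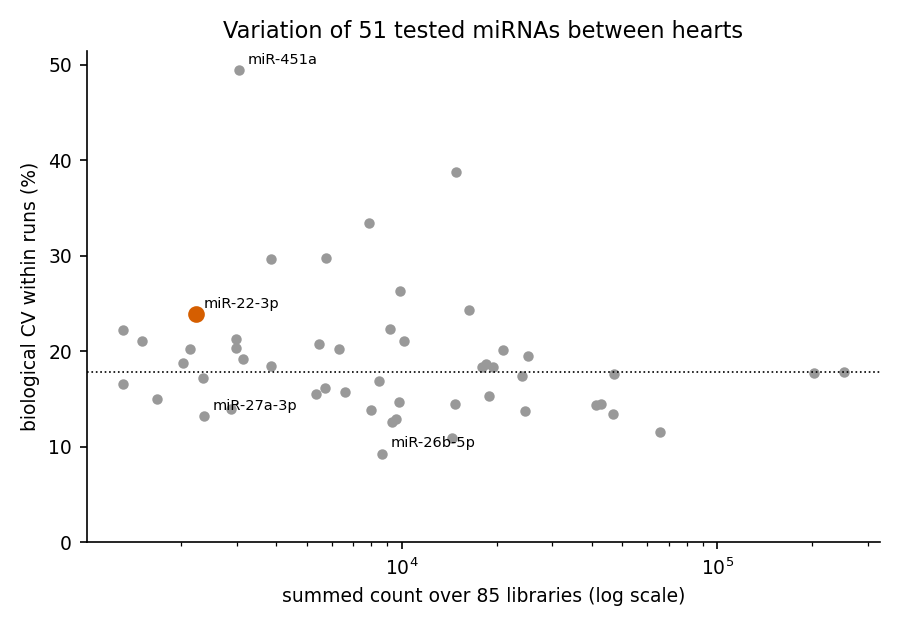
Biological coefficient of variation within runs (%) against summed count (log scale) for the 51 tested miRNAs. The dotted line is the median, 17.9%; miR-22-3p (orange) lies above it at 23.9%, and miR-451a is highest at 49.4%.

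Within runs, miR-22-3p was inversely related to a small set of miRNAs, but these relations did not pass once trends with library number were removed. After centring log2 CPM within each run (74 libraries), 7 of 50 other tested miRNAs passed the permutation test, 6 with a negative r (12.0%) and 1 with a positive r (2.0%). The median r over the 50 was -0.04. None of the 7 calls held once the trend with library number was taken out of each run separately, in a test added after the data were seen: 0 of 50 then passed the permutation test, with 9 at an unadjusted p under 0.05. The r values kept their sign but shrank, to -0.40 for miR-29c-3p (adjusted p = 0.058), -0.33 for miR-27b-3p (0.102), -0.31 for miR-29a-3p (0.118), -0.25 for miR-148a-3p (0.211) and 0.34 for miR-99a-5p (0.102). The miR-199a-3p row was at -0.23 (0.268) and that of miR-199b-3p at -0.21 (0.292). The relations below are those before that step. The sign was the same in all 4 runs for miR-29c-3p, miR-27b-3p, miR-148a-3p and miR-29a-3p, all negative.

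The mature sequences of these miRNAs are printed with the seed in capitals to show which of them could pair with the same messages (RefSeq, GRCm38.p6).
miR-29c-3p: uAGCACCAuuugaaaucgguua
miR-29a-3p: uAGCACCAucugaaaucgguua
miR-29b-3p: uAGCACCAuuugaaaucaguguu
miR-27b-3p: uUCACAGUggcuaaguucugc
miR-148a-3p: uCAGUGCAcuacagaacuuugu
miR-199a-3p and miR-199b-3p: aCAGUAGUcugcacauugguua
miR-99a-5p: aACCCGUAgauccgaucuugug
miR-29a-3p, miR-29b-3p and miR-29c-3p share 1 seed, and none of these seeds is that of a miR-22 arm. miR-199a-3p and miR-199b-3p have the same mature sequence, so their rows (9607 and 9327 counts) cannot be taken as separate measurements.

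miR-29c-3p, of a family known for repressing collagen genes, had the most negative relation to miR-22-3p. Its r was -0.49 (adjusted p = 0.0015, rho = -0.44 with adjusted p = 0.008), and it was negative in each run, at -0.29 in S1-10, -0.64 in S22-48, -0.42 in S49-59 and -0.30 in S60-85. Without libraries 46 and 3, the farthest from the median of miR-22-3p, it was -0.45 and still passed (adjusted p = 0.0075). With all 548 miRNAs kept in the scaling it was -0.21 and did not pass (adjusted p = 0.736). miR-29a-3p had an r of -0.37 (adjusted p = 0.0199), which was -0.29 without those libraries (adjusted p = 0.175). For miR-29b-3p, of the same seed, r was -0.05 (adjusted p = 0.845). Whether the r values of the family differ was not tested.

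miR-27b-3p, which has been linked to lipid metabolism, had an r of -0.41 (adjusted p = 0.0177). It was -0.54 in S22-48 and -0.56 in S49-59 but -0.01 in S60-85, rho was -0.23 (adjusted p = 0.181), and r without libraries 46 and 3 was -0.25 (adjusted p = 0.197), so the call rests on those libraries. miR-148a-3p had an r of -0.39 (adjusted p = 0.0165) and a rho of -0.37 (adjusted p = 0.0452), and without those libraries r was -0.33 (adjusted p = 0.0652). miR-199a-3p, a miRNA of fibroblasts and of hypertrophic hearts, had an r of -0.39 (adjusted p = 0.0199) that was positive in S49-59 (0.09) and no longer passed without those libraries (-0.27, adjusted p = 0.197).

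The one positive call was miR-99a-5p, named after its values were seen because it was negative in S1-10 (-0.20). Its r was 0.43 (adjusted p = 0.0165), at 0.55 in S22-48, 0.74 in S49-59 and 0.21 in S60-85. It was 0.42 without libraries 46 and 3 (adjusted p = 0.0157), while rho was 0.33 (adjusted p = 0.0775). Without TMM, miR-99a-5p and miR-29c-3p were the 2 that passed, and without the filter miR-99a-5p was the 1 that did (r = 0.52, adjusted p = 0.0164).

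Gene lists gave the following counts. Of the 11 tested miRNAs out of 15 known from cardiac hypertrophy and heart failure, 6 had an r below 0 and 5 above, with a median of -0.05 against -0.04 over all 50. Of these 11, 4 rows passed the test, all with a negative r (miR-29a-3p, miR-29c-3p, and miR-199a-3p and miR-199b-3p, which have the same sequence), and 0 passed with a positive r, beside 12.0% and 2.0% of all tested miRNAs. Of 5 tested out of 8 metabolic miRNAs, 3 had an r below 0, with a median of -0.02, and 1 passed (miR-27b-3p). Of 4 tested out of 5 cardiomyocyte miRNAs 0 passed. The heart-specific miR-208a-3p and miR-499-5p both had an r of 0.29 (permutation test, adjusted p = 0.0861 and 0.0774). Their rho was 0.06 and 0.29 (adjusted p = 0.859 and 0.108). For miR-208a-3p r was 0.51 in S22-48 and 0.27 in S60-85 but -0.33 in both S1-10 and S49-59. For miR-499-5p it was 0.49 and 0.34 in S22-48 and S60-85, and -0.14 and -0.06 in S1-10 and S49-59. The endothelial, smooth muscle, leukocyte and erythroid lists had 0 calls among 2, 2, 1 and 1 tested members, and the 1 tested fibroblast miRNA was miR-199a-3p. The chromosome 11 neighbours were too low to test, with 63 counts for miR-132-3p, 8 for miR-132-5p, 1 for miR-212-3p and 2 for miR-212-5p.

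**Figure D5:**
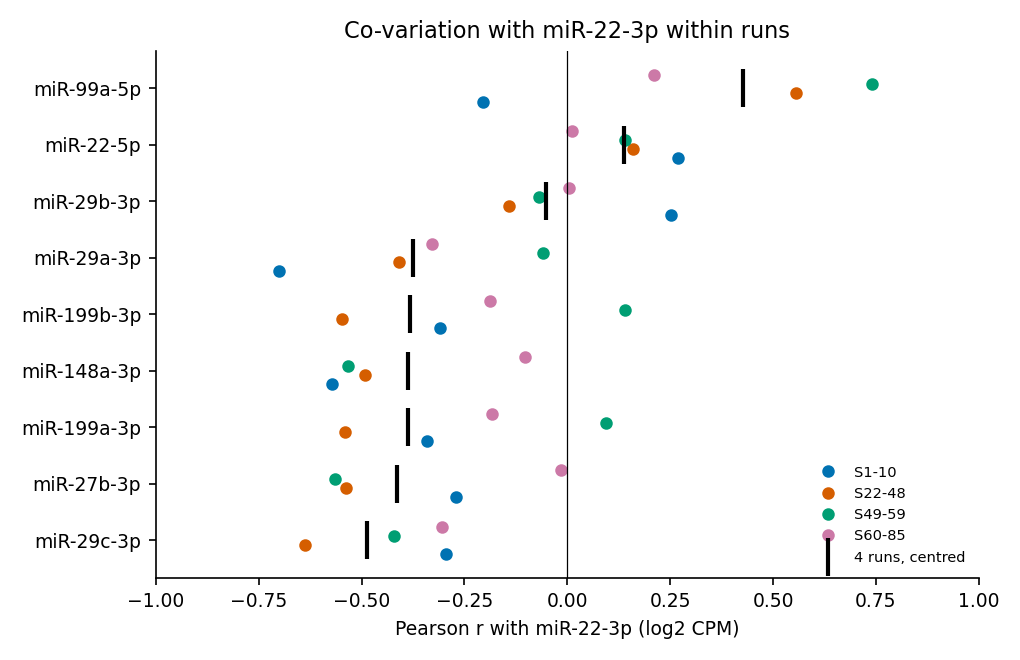
Pearson r of log2 CPM with miR-22-3p for the 7 miRNAs that passed before trends with library number were removed, miR-29b-3p and miR-22-5p. Coloured points give r in each run and black bars the centred value over 74 libraries, from -0.49 for miR-29c-3p to 0.43 for miR-99a-5p; miR-199a-3p, miR-199b-3p and miR-99a-5p have a run of the other sign.

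The summed share of each cell type list was set beside miR-22-3p within runs, as a description over 74 libraries. The r was 0.38 for the cardiomyocyte list, 0.15 for the leukocyte list, 0.16 for the erythroid list, -0.32 for the fibroblast list, -0.28 for the endothelial list and -0.27 for the smooth muscle list. The sums are shares of the library total, without TMM, and no test was run on them. The leukocyte sum is mostly miR-142a-3p and the fibroblast sum mostly miR-199a-3p. Other sums are also mostly a single row. miR-1a-3p had 202280 counts in the cardiomyocyte list, where the next member, miR-133a-3p, had 47040. In the endothelial list miR-126a-3p had 65803 and miR-126a-5p 6621. In the smooth muscle list miR-143-3p had 42881 and miR-145a-5p 2986. All these sums therefore follow single miRNAs more than lists. Single members were read in log2 CPM with TMM, another scale than the sums, so the values cannot be compared directly. Their r was 0.11 for miR-1a-3p and 0.00 for miR-133a-3p of cardiomyocytes, and 0.09 for miR-145a-5p of smooth muscle. Without TMM these values were 0.05, 0.09 and 0.15. miR-1a-3p and miR-133a-3p hold the most counts of the cardiomyocyte list, yet neither reached the 0.38 of the summed share. The part of scaling in this gap was not tested. In bulk tissue, fewer cells of a type and less RNA per cell cannot be told apart, and the part of these lists in the relations above was not tested. The library total had an r of 0.31 (permutation p = 0.0116, adjusted p = 0.0349 over 3 relations; rho = 0.26, p = 0.0261, adjusted p = 0.0784; 0.25 without libraries 46 and 3, p = 0.0426). Given the library total, 4 of 50 miRNAs passed, and all were among the 7. Library number had an r of 0.21 (p = 0.0934, adjusted p = 0.140; rho = 0.03, p = 0.777), which joined 0.64 in S22-48 with -0.50 in S60-85. With 1 slope in library number over all runs, also added after the data were seen, 7 of 50 miRNAs passed, the same 7 as before. One slope over all runs cannot take out such opposite trends, which is why a slope was fitted for each run.

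The arms of miR-22 did not show a detectable relation within runs. Their r was 0.14 (permutation p = 0.270, adjusted p = 0.270 over the same 3 relations; rho = 0.16, p = 0.187; 0.12 without libraries 46 and 3), with values from 0.01 in S60-85 to 0.27 in S1-10. With a median of 1 count for miR-22-5p, a relation between the arms may be hidden by counting noise at this depth.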

How the data were processed

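Total RNA from 85 hearts was extracted with miRNeasy and made into QIAseq miRNA libraries. Per the labels, the authors mapped reads with HISAT2 2.0.6 to mm10 and counted them with HTSeq 0.13.5, and deposited raw counts, whole numbers per mature miRNA with no normalization. The miRNA annotation, trimming, strand setting and use of molecular identifiers are not given in the sources used here. Without identifiers counted, reads are not independent molecules, and intervals cover counting error only.

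All libraries form 1 group. edgeR 4.0.16 (R 4.3.3) scaled counts by TMM, and filterByExpr kept 51 of 548 miRNAs, which hold 95.7% of counts. Its cutoff was the CPM that equals 10 counts in a library of median size, reached in at least 63 libraries, with a total of 15. The raw count needed therefore varied with the library total. A prior count of 2 went into log2 CPM. Runs were compared with edgeR's quasi-likelihood F test, with the standard error taken as the log2 fold change over the square root of F. Overdispersion used a chi-square against Poisson expectation. Relations used 100000 permutations within runs, two-sided. Benjamini-Hochberg adjustment covered all tested miRNAs, at 0.05. A p-value from the run tests or the permutations is set against spread between these hearts, and one from the chi-square against counting error only. The scripts were tested on simulated data. Named partners were those past the threshold with 1 sign in all 4 runs (up to 5 each way), list members past it, the 3 rows either side of miR-22-3p by count and the 3 precursors nearest by count. Of 1977 rows, 1678 matched a RefSeq mature sequence, and RNAfold 2.7.2 folded the precursor. The members, lists and bounds of the runs were chosen with earlier results of these data known, and the contrasts between pairs of runs were added after the data were seen.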

Additional observations from a re-analysis of the deposited data

How the results depend on the processing

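The count of miRNAs that passed with miR-22-3p within runs, 7, was 2 without TMM, 1 of 547 without the filter, 3 with the biweight midcorrelation, 4 given the library total, 2 with Spearman's rho, 2 without libraries 46 and 3 and, in an alternative added after seeing the data, 3 with all 85 libraries centred in 8 runs and 0 with the trend in library number removed from each run. With DESeq2 size factors it was 6, and with 1 slope in library number over all runs (also added after seeing the data) it stayed 7. All that passed in these settings were among the 7. With the 2 longest runs only (also added) 7 passed, 5 of them shared. Without the filter, 154 of 548 miRNAs varied beyond counting noise against 50, and 111 differed between runs against 50, where more miRNAs were tested. S49-59 minus S22-48 for miR-22-3p turned from 0.08 to -0.024 without the filter. The causes of the other changes were not tested. The median level, the arm share, the arm ratio between runs and the relations to miR-22-5p and to the library total stayed on their side of the threshold, or within 1 SD of the value given, under the other scalings, filters, depth minimum and prior count run for them.

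Depth limits miR-22-5p most, with 27 libraries at 0. For miR-22-3p, the approximation that can read too high put counting noise at 50.3% of the within-run variance. No paired analysis was possible because all libraries form 1 group.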
